A study of Mus musculus with 4 samples.

Results

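The nuclear genes of the respiratory chain were examined in 4 RNA-seq libraries from mouse T-helper 2 (Th2) cells. A gene was a member when its symbol, matched by Ensembl identifier, began with Nduf, Sdha to Sdhd, Uqcr, Uqcc, Cox followed by a digit, or Atp5. Names with a dash or ps and genes of the mitochondrial chromosome were left out. The rule found 114 of the 50600 annotated genes, and 31 of them overlapped an exon of a gene on the opposite DNA strand. Of the 114, 109 are annotated as protein-coding and 5 as processed pseudogenes. The 5 pseudogenes held 2 counts in all.

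The 4 libraries form 1 group. They are biological replicates 1 to 4 of primary Th2 cells from strain C57BL/6NJ, with no genotype change in the labels, which link a T cell differentiation protocol that was not used here. All carry the same donor identifier, age and sex are not given, and the file headers call the samples the 0 hour point of a differentiation series. Separate mice are not stated, so each test below measures the spread between these samples, which may be technical.

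The respiratory chain sits in the inner mitochondrial membrane. Complexes I and II pass electrons from NADH and succinate to ubiquinone, complex III hands them to cytochrome c and complex IV to oxygen. Complexes I, III and IV pump protons, and complex V, the ATP synthase, uses the gradient to make ATP. Most subunits are encoded in the nucleus, and assembly factors build the complexes without staying in them. T cells draw on this chain both at rest and when they are activated. The factors NRF1, GABPA and YY1 are known to bind promoters of many of these genes.

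Totals ranged from 1452053 to 2351916 counts, of which members held 2738 to 4373. With these totals the upper limit that 0 counts allow, 3 counts, was 1.28 to 2.07 CPM (counts scaled to a common library total). Such limits and the intervals below cover counting error only. All 6 T cell markers had a mean of at least 1 TPM, the counts per exon base scaled to the same total in every library. Of 9 Th2 markers 4 did, Gata3, Il4, Il4ra and Ptgdr2, while Il5 and Il13, defining Th2 cytokines, had no counts. Of the markers of other cells, Foxp3 (768 to 1144 counts), Csf1r (555 to 771), Cd79a (58 to 87) and Cpa3 (49 to 118) were counted in every library. Cd8a had 1 count in all, and Tbx21, Ifng, Il17a, Ms4a1, Lyz2 and Kit had none. Cd8b1 had 1, 3, 0 and 5 counts (1.34 TPM) and Itgam 4, 4, 2 and 0. Several of these markers overlap exons of a gene on the other strand: Cd3e, Gata3, Il4ra and Ptgdr2 as well as Foxp3 and Csf1r. The part of other cells in the results was not tested.

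The values below are fragments assigned to the annotated strand of a gene. Fragments in the stretch that a pair of genes shares were assigned by strand alone, and whether the strand setting matched the libraries is not given in the sources used here. A member's count is therefore given beside that of its opposite gene and is not read as a transcript level. Counts under the other strand setting were not analysed here, and every direction below holds for the strands as counted.

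Promoter windows are shown first for 3 pairs that overlap head to head. Each window has 300 bases, 250 before the RefSeq start of the member and 50 from it on, written 5′ to 3′ on the member's strand from the GRCm38.p6 build. Capitals mark matches to NRF1 (GCGCA, any base, GCGC), GABPA (CCGGAAG) or YY1 (AAGATGGC) letters on either strand. The Ndufs3 window, chr2:90904672-90904971 on the minus strand, holds 2 GABPA matches, at -27 to -21 and at 1 to 7 from the start. Kbtbd4, its opposite gene, starts between them at -19. The Atp5l window, chr9:44920693-44920992 on the minus strand, has 2 GABPA matches. The Sdhaf4 window, chr1:24005591-24005890 on the minus strand, has 1 NRF1 match at 8 to 17. The opposite genes of Atp5l and Sdhaf4, Gm30934 and Gm26524, start past the ends of these windows, at 543 and 135.
Ndufs3: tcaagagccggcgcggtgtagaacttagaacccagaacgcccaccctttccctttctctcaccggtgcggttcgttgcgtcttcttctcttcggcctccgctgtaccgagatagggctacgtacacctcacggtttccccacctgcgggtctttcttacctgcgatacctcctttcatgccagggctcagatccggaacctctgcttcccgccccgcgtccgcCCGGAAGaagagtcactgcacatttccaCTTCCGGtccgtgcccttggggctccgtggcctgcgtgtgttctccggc
Atp5l: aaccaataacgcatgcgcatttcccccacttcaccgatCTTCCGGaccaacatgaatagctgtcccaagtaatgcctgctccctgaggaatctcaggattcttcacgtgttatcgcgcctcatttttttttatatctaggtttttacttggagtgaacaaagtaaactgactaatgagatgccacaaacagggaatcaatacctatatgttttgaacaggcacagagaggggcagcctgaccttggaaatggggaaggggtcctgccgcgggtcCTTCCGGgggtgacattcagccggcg
Sdhaf4: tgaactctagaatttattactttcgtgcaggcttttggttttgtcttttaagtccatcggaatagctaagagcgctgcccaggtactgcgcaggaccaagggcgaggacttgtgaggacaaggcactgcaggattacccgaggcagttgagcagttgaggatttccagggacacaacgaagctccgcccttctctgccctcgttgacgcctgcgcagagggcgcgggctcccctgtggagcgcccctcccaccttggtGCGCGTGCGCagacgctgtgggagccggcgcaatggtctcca

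A further pair of windows shows the motifs in combination. Cox20, the member with the most counts, has a GABPA match at -103 to -97 and a YY1 match at -75 to -68 in chr1:178318903-178319202 on the plus strand. Cox6a1, the broadly used form of a complex IV subunit, has 2 NRF1 matches and 1 GABPA match in chr5:115348909-115349208 on the minus strand.
Cox20: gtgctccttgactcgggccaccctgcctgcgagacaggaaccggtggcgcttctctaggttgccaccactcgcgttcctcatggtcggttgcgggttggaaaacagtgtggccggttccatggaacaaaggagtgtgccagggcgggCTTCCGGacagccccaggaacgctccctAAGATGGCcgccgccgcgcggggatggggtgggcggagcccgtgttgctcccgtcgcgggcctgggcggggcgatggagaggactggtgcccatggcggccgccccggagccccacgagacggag
Cox6a1: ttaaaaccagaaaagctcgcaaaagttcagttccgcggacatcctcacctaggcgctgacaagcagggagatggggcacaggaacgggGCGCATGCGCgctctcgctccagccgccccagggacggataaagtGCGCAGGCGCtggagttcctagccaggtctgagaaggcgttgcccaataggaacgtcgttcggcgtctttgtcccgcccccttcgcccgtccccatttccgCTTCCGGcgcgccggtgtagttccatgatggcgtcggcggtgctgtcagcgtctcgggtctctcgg

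A RefSeq window was found for 88 of the 114 members, with the RefSeq start a median of 14.5 and at most 6252 bases from the start in the count tables. Of these, 48 (54.5%) held a match to at least 1 of the 3 motifs, against 20.3% of the windows of 16469 protein-coding genes. NRF1 letters were in 21 windows (23.9%, against 6.92%), GABPA letters in 25 (28.4%, against 12.4%) and YY1 letters in 12 (13.6%, against 3.28%). Matches to more than 1 of the motifs were in 10 windows (11.4%, against 2.25%). No member window had GABPA and YY1 letters overlapping each other. The median GC content was 58.5% in members and 57% in protein-coding genes. These shares describe letters in a window and do not show that a factor binds there. Of the 21 windows whose member overlaps an opposite exon, 11 held a match.

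**Figure D1:**
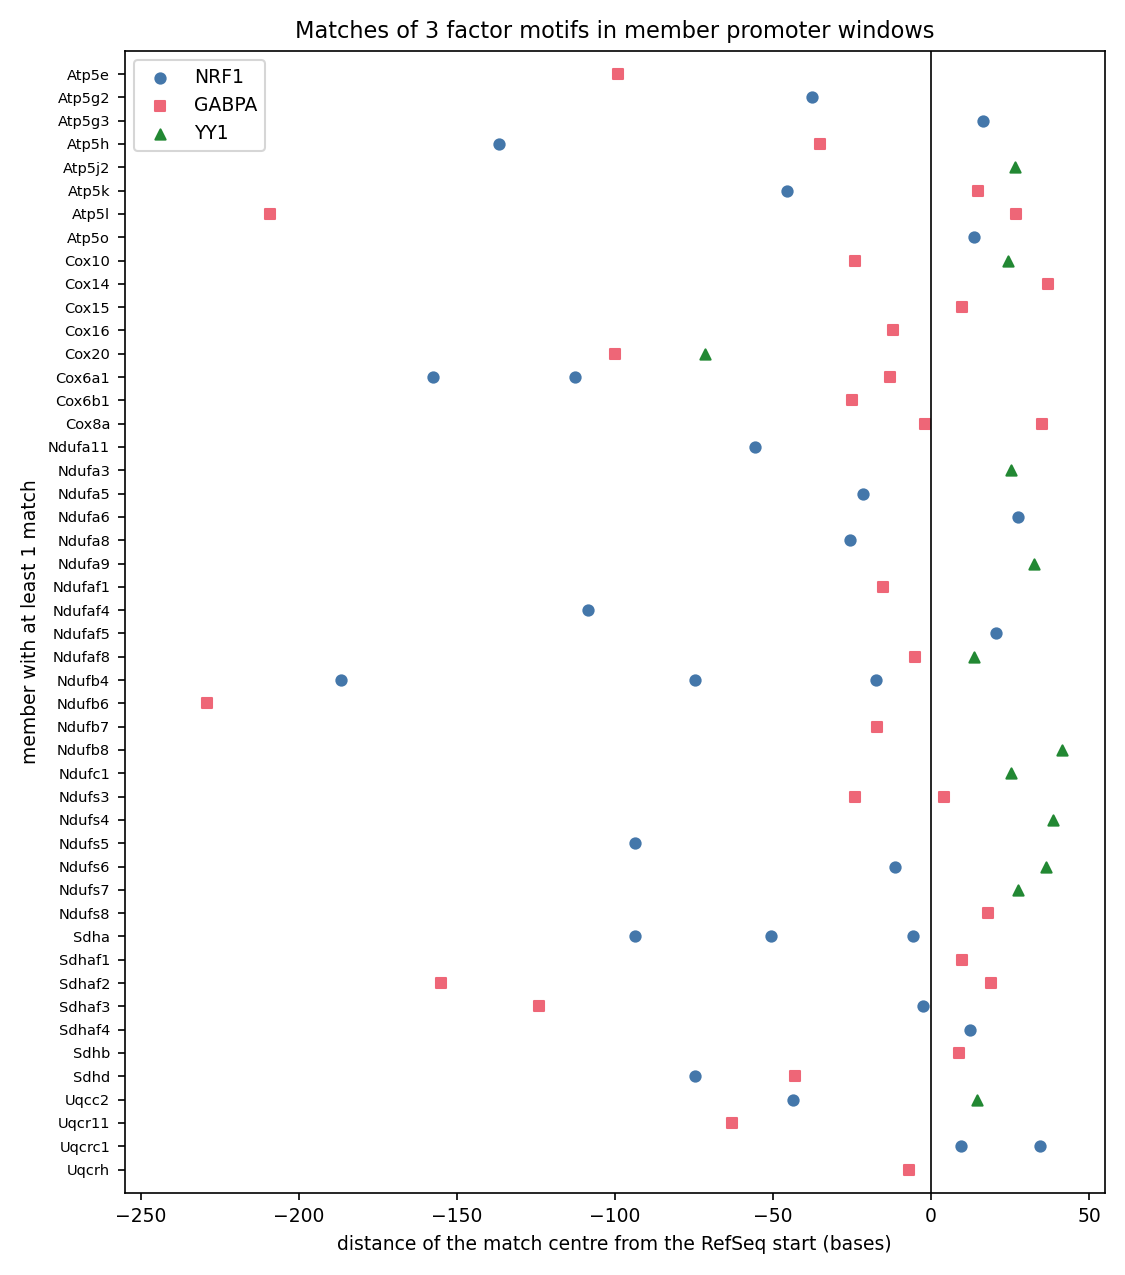
Positions of NRF1, GABPA and YY1 letter matches (marks) in the promoter windows of the 48 members with at least 1 match, plotted as the distance of the match centre from the RefSeq start in bases. Matches lie on both sides of the start, and the YY1 marks lie after the start in all members drawn except Cox20.

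Members held 0.195% ± 0.0151 of the counts (SD, n = 4), where they are 0.225% of the genes and 0.191% of the exon length. By library the share was 0.189%, 0.186%, 0.218% and 0.189%, so replicate 3 was highest and the other 3 lay close together. A mean of at least 1 TPM was reached by 81 of the 114, against 21.6% of all genes and 34% of protein-coding genes. At the low end, 20 members had at most 3 counts in the 4 libraries together and 8 had none. The median member stood at 3.54 TPM, between the 0.144 TPM of all protein-coding genes and the 60.5 TPM of 83 cytosolic ribosomal protein genes. The median of 78 mitochondrial ribosomal protein genes was 2.06 TPM and that of 50 proteasome genes 3.96 TPM. These medians were set side by side without a test. In these bulk samples, fewer cells of a type and less RNA per cell cannot be told apart.

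Counts were concentrated in few members. Cox20 held 26.1% of all member counts, and together with Atp5f1, Cox6c, Ndufv3 and Atp5j it held 62.2%. Of these 5 genes only Ndufv3 has no opposite exon overlap. The 31 members with such an overlap held 72.2% of member counts.

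**Figure D2:**
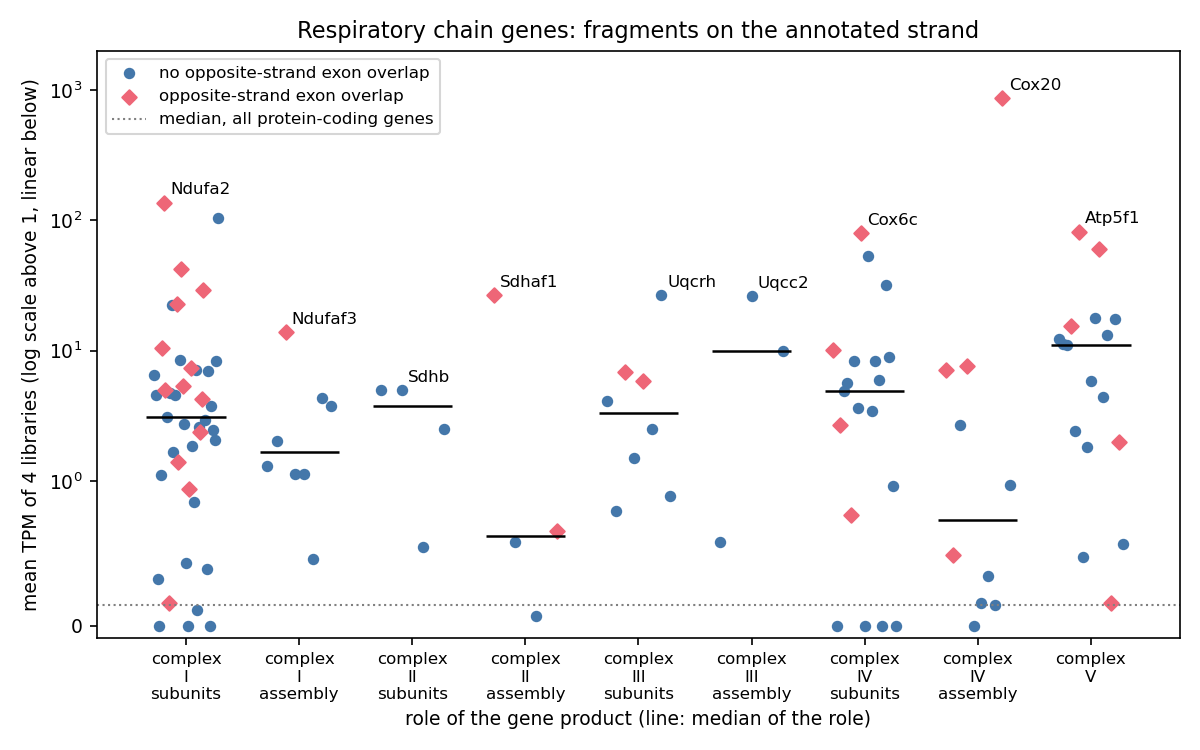
Mean TPM over the 4 libraries of each member (points), by role, on a scale that is logarithmic above 1 and linear below. Lines are role medians and diamonds are members that overlap an opposite-strand exon, among them Cox20 at 868 TPM, the highest point.

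Complex I oxidises NADH. The genes named as its subunits form the largest group, with 41 genes at a median of 3.10 TPM, 31 of them at 1 TPM or more. Roles follow the symbol, and the 41 include processed pseudogenes that had no counts. Ndufa2, an accessory subunit, had 103, 113, 106 and 81 counts in replicates 1 to 4, or 137 ± 9.86 TPM, the highest level of the group. Ndufv3, a small accessory subunit of the NADH-oxidising part, had 404, 349, 344 and 245 counts, or 104 ± 7.69 TPM. Both were high in all 4 libraries. Ndufv3 (ENSMUSG00000024038.16, chromosome 17, 31520115 to 31531326, plus strand, mm10) has no opposite exon overlap. The nearest opposite gene, Wdr4, lies 141 bases upstream and had 4.39 ± 1.85 CPM, against 171 ± 17.5 CPM for Ndufv3. The other leading subunits were Ndufb11 at 42.5 ± 3.80 TPM, Ndufs3 at 29.2 TPM, Ndufa9 at 22.9 ± 4.44 TPM and Ndufa6 at 22.4 TPM.

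The core subunits Ndufs1 and Ndufv1 were far below the leading subunits of complex I, which include another core subunit, Ndufs3, at 29.2 TPM. Core and accessory subunits were not compared as groups. Ndufs1, which carries iron-sulfur clusters, had 28, 24, 27 and 20 counts, or 2.39 ± 0.270 TPM. Ndufv1, which binds NADH and FMN, had 4, 5, 3 and 12 counts, or 2.08 ± 1.93 TPM. Ndufs1 was alike across libraries, while the level of Ndufv1 came mostly from replicate 4. The Ndufs1 and Ndufv1 ranges over libraries overlap, so their order is not resolved. At the low end Ndufs5 had 2 counts, Ndufb4 3 counts and Ndufc1 1 count in all.

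The 8 complex I assembly factors had a median of 1.67 TPM, with 7 at 1 TPM or more. Ndufaf3 was highest, with 39, 28, 37 and 25 counts or 13.8 ± 2.35 TPM. Ndufaf7, a methyltransferase, followed at 4.36 ± 0.927 TPM and Ndufaf8 at 3.77 ± 2.56 TPM. The lowest Ndufaf3 library lay above the highest Ndufaf7 library.

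Complex II is succinate dehydrogenase, which also works in the citric acid cycle. The flavoprotein Sdha had 22, 25, 33 and 19 counts, or 4.97 ± 1.13 TPM. The iron-sulfur protein Sdhb had 18, 33, 5 and 6 counts, or 5.01 ± 3.66 TPM. Both means were alike, but Sdhb was high in replicates 1 and 2 and low in 3 and 4. The membrane anchor Sdhd had 1, 5, 0 and 8 counts, and the other anchor, Sdhc, 1, 5, 4 and 0. Of the 4 assembly factors only Sdhaf1, needed for the iron-sulfur clusters of Sdhb, passed 1 TPM, with 94, 56, 100 and 81 counts or 26.5 ± 8.22 TPM.

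Complex III subunits (8 genes) had a median of 3.31 TPM. Uqcrh, the hinge protein at cytochrome c1, led with 38, 63, 36 and 34 counts, or 26.7 ± 6.03 TPM. The core protein Uqcrc2 had 9, 19, 41 and 9 counts, and its partner Uqcrc1 had 7, 15, 10 and 2. Uqcrfs1, the Rieske iron-sulfur protein, had 3, 14, 0 and 2 counts. The low counts of these 3 varied several-fold between libraries, with no library highest for all of them. Of the 3 assembly factors, Uqcc2 stood at 26.1 ± 4.27 TPM, Uqcc3 at 9.94 ± 3.74 TPM and Uqcc1 at 0.583 ± 0.430 TPM.

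Complex IV subunits (19 genes) had a median of 4.91 TPM, and 4 had no counts, a processed pseudogene among them. Cox6c had 408, 436, 411 and 240 counts, or 80.1 ± 7.54 TPM (chromosome 15, 35925886 to 35938246, minus strand). Cox7c, which has no opposite gene within 5 kb, had 53, 46, 62 and 28 counts, or 32.0 ± 7.30 TPM. Both were counted well in every library. Cox4i1, the regulatory subunit, had 6, 34, 19 and 20 counts, or 10.1 ± 5.43 TPM, and Cox5a had 4, 2, 8 and 12, or 2.71 ± 2.37 TPM.

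The 10 genes named as complex IV assembly factors, a processed pseudogene among them, had a median of 0.730 TPM, and 4 reached 1 TPM. Cox20 (ENSMUSG00000026500.6), a chaperone of the mitochondrially encoded Cox2, had 1104, 1097, 1158 and 642 counts, or 868 ± 103 TPM. It lies on chromosome 1 from 178319130 to 178322693 on the plus strand. Cox15 and Cox10, which make the haem a of the complex, stood at 7.66 ± 0.480 and 7.12 ± 0.981 TPM. Cox11, which inserts copper, had 0, 3, 1 and 0 counts, and Cox16 had none. Cox16 shares 56.8% of its exon length with Gm20498 on its own strand, and fragments that lie in more than 1 gene were not assigned.

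Complex V had the highest median of all roles, 11.0 TPM over 17 genes, with 14 at 1 TPM or more. The stalk subunit Atp5f1 had 423, 514, 452 and 341 counts, or 81.8 ± 6.78 TPM (chromosome 3, 105942698 to 105960099, minus strand). The coupling factor Atp5j had 252, 239, 288 and 186 counts, or 60.0 ± 8.24 TPM. Both were far above the catalytic head. There, Atp5a1 had 44, 58, 54 and 41 counts (12.3 ± 1.74 TPM), Atp5b 59, 110, 51 and 34 (11.2 ± 4.23 TPM) and Atp5c1 10, 53, 21 and 24 (11.0 ± 6.44 TPM). The 3 head subunits were alike in TPM within their spread over libraries.

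Related genes were compared within each library over 9 pairs. Most pairs set a broadly used form against a tissue-restricted one, and the Atp5g pairs compared genes for the same subunit of complex V. With 4 libraries the smallest p of the exact two-sided sign-flip permutation test is 0.13 (0.188 after Benjamini-Hochberg adjustment over the pairs), so no pair could pass 0.05. Folds are ratios of count density, the counts per exon base, summed over libraries, followed by their exact 95% (Clopper-Pearson) bounds. Where a gene had no counts, the lower of those bounds is given first and then the fold against 3 counts over the group. Cox4i1 was at least 10.6-fold higher than Cox4i2, the lung form, which had no counts (13.4-fold against 3 counts). Cox7b was at least 4.50-fold higher than Cox7b2, which had no counts either (5.80-fold against 3 counts). Ndufa4 was 18.2-fold (2.96 to 751) higher than Ndufa4l2, which had 1 count. These 3 differences had the same direction in all 4 libraries.

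Other pairs rested on 1 library or went the other way. Cox6a1 was 10.2-fold (2.49 to 89.5) higher than the muscle form Cox6a2, but the 2 counts of Cox6a2 were both in replicate 4, where Cox6a1 had 2 as well. Cox8a was 7.93-fold (1.97 to 69.2) higher than Cox8b, whose 2 counts were in replicate 1, where Cox8a had none. Cox6b1 was 2.55-fold (1.4 to 4.78) higher than the testis form Cox6b2, in 2 of 4 libraries (p = 0.5, exact sign-flip permutation test). Cox7a1, the heart and skeletal muscle form, was 14.4-fold (8.69 to 25.5) higher than the broadly used Cox7a2, in 4 of 4 libraries. Cox7a1 had 33, 32, 28 and 46 counts and Cox7a2 had 2, 2, 12 and 1. The muscle markers Myh6 and Actn2 had 0 and 3 counts in all, and Ckm, which overlaps an opposite exon, had 12, 19, 13 and 12. Of the genes for the identical c ring subunit of complex V, Atp5g3 was 2.88-fold (1.64 to 5.36) above Atp5g2, which was 3.61-fold (1.63 to 8.16) above Atp5g1.

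Median TPM was set out by the position of a member relative to genes of the other strand, without a test. The 31 members with an opposite exon overlap had a median of 7.12 TPM, and 25 of them reached 1 TPM. The 6 whose span overlaps an opposite gene without sharing exons had a median of 2.97 TPM. The 47 with an opposite gene within 5 kb had 3.77 TPM and the 30 with none within 5 kb 0.985 TPM. Without the 5 processed pseudogenes, the second class held 4 members with a median of 6.65 TPM and the last class 27 with 1.13 TPM. Among all protein-coding genes the same 4 classes had medians of 1.84, 0.120, 0.549 and 0 TPM. The exon-overlap class was highest and the class with none lowest in both sets, with or without the pseudogenes. An exon overlap was annotated for 28.4% of the protein-coding members and 22.1% of protein-coding genes. Members with an overlap summed to 1410 ± 142 CPM and those without to 542 ± 20.5 CPM.

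**Figure D3:**
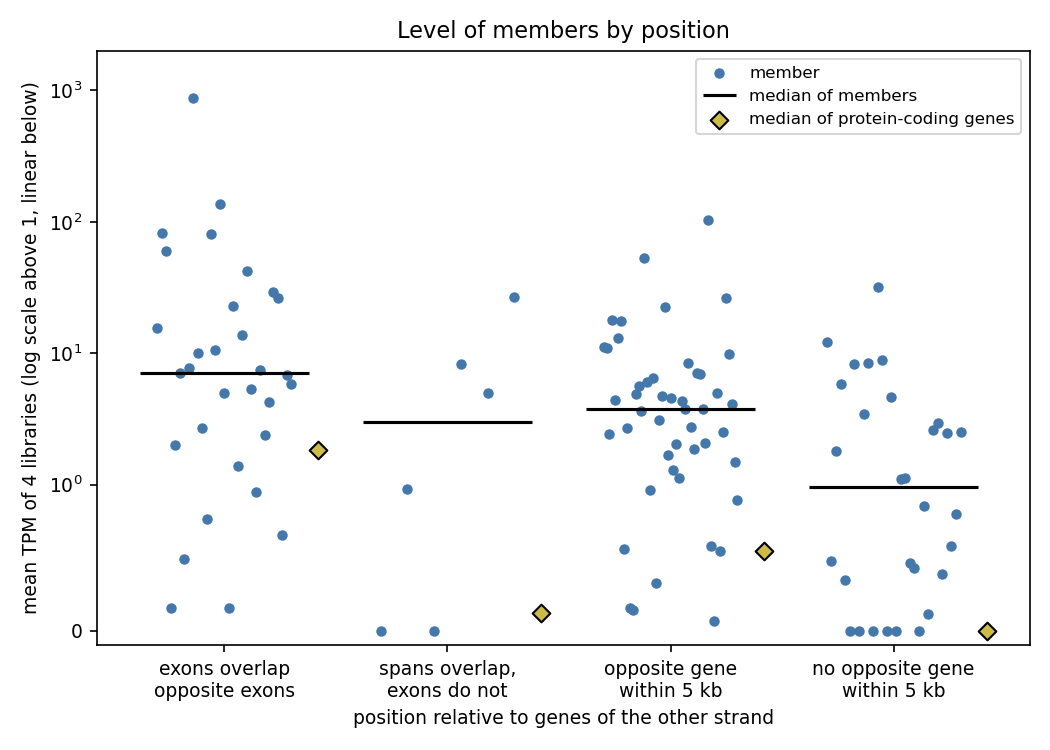
Mean TPM of each member (points, 4 libraries) by its position relative to genes of the other strand, on a scale that is logarithmic above 1 and linear below. The black lines are member medians, from 7.12 TPM with an exon overlap to 0.985 TPM with no opposite gene within 5 kb, and the diamonds are the medians of all protein-coding genes in the same class.

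The opposite genes of the 31 pairs summed to 5949 ± 538 CPM, 4.20-fold the members' own sum and 5.55-fold without the Cox20 pair. Across the 31 pairs a member's mean CPM followed that of its opposite gene little (Pearson r 0.19 on the log2 scale, Spearman rho 0.11, with pairs sharing libraries and differing in length). Opposite genes had more counts than the member in all 4 libraries in 22 pairs.

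**Figure D4:**
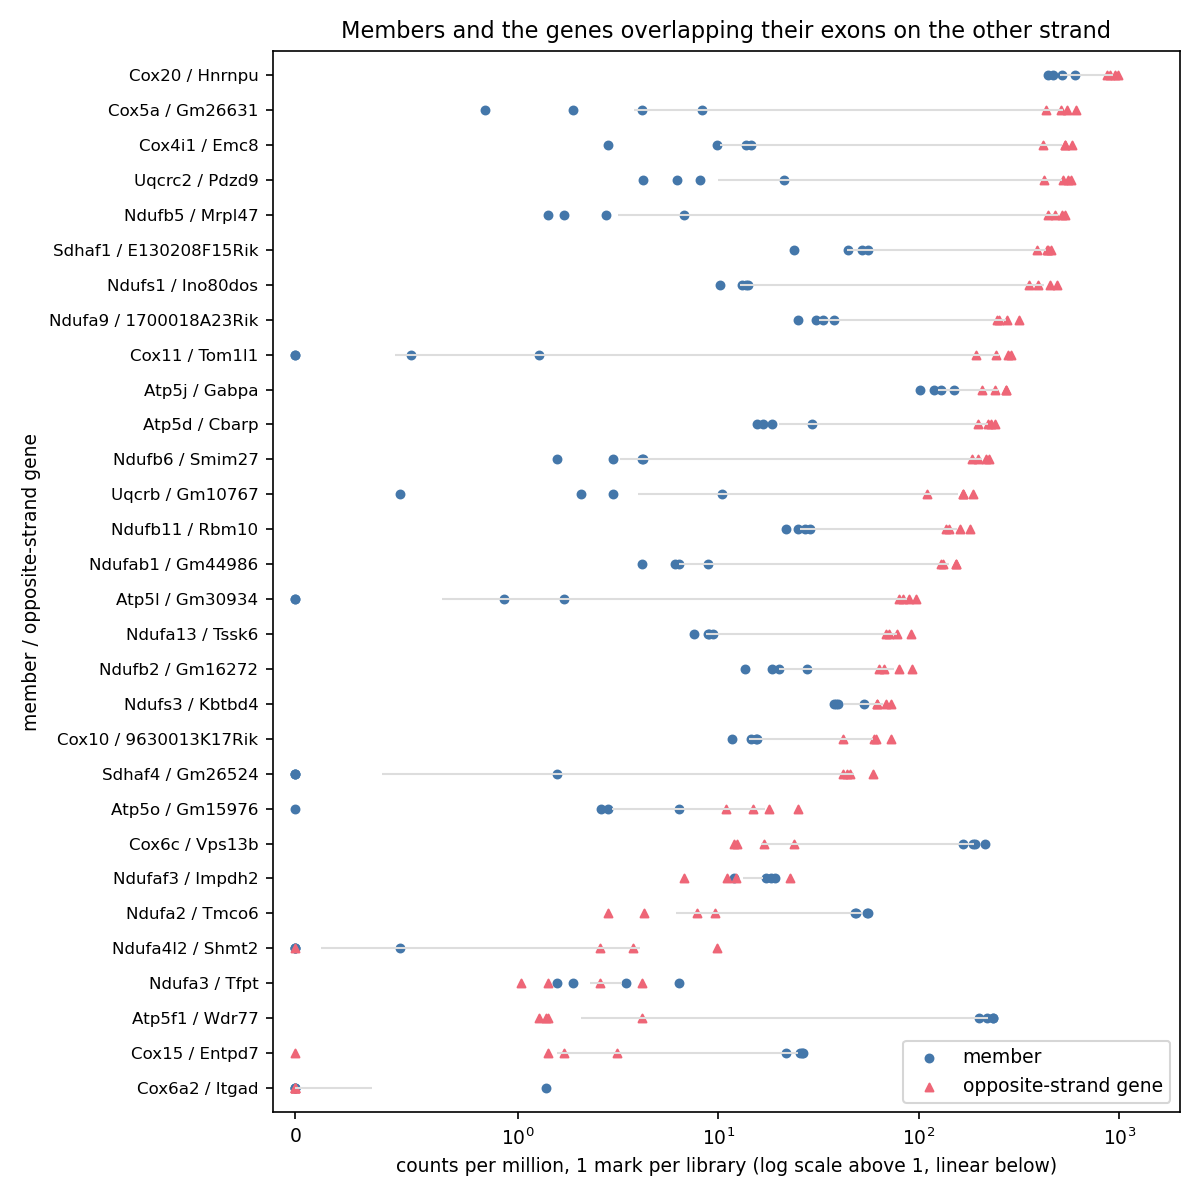
CPM of each member (circles) and of its opposite-strand gene (triangles), 1 mark per library, for 30 of the 31 pairs, with a grey line between the means, on a scale that is logarithmic above 1 and linear below. In most of the upper pairs every triangle lies to the right of every circle, while Cox6c, Ndufa2, Atp5f1 and Cox15 lie to the right of their opposite genes.

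Count density was compared within each pair by edgeR's quasi-likelihood test with the library as a block, fitted to all 8189 overlapping genes of the tables. The opposite gene was denser in 19 of the 28 pairs tested and the member in 7, at a Benjamini-Hochberg adjusted p under 0.05 over all genes tested. In the background the opposite gene was denser in 47.8% of the 4740 genes tested and less dense in 45%. Of the 3194 protein-coding genes among them, the opposite gene was denser in 61.9% and the gene itself in 29.6%. The members' counts are near those shares of protein-coding genes. The median log2 difference was 3.78 in members, 2.70 in protein-coding genes and 0.36 in all genes tested. Where each gene is the other's largest overlap, the pair enters the fit from both sides with opposite signs. This draws the split and the median over all genes tested towards evenness. Not tested for low counts were Ndufa3 with Tfpt, Ndufa4l2 with Shmt2, and Cox6a2 with Itgad. The filter, the same for the background, could be met by either gene of a pair alone. Cox11, Sdhaf4 and Atp5l, with 4, 3 and 6 counts in all, entered through their opposite genes only. So did Ndufab1, Ndufb5, Ndufb6, Uqcrb, Uqcrc2, Cox4i1, Cox5a and Atp5o, whose own counts did not reach the minimum in every library. Atp5f1, Cox15 and Ndufa2 entered through the member only. In such pairs the direction was largely set by which gene passed the filter.

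**Figure D5:**
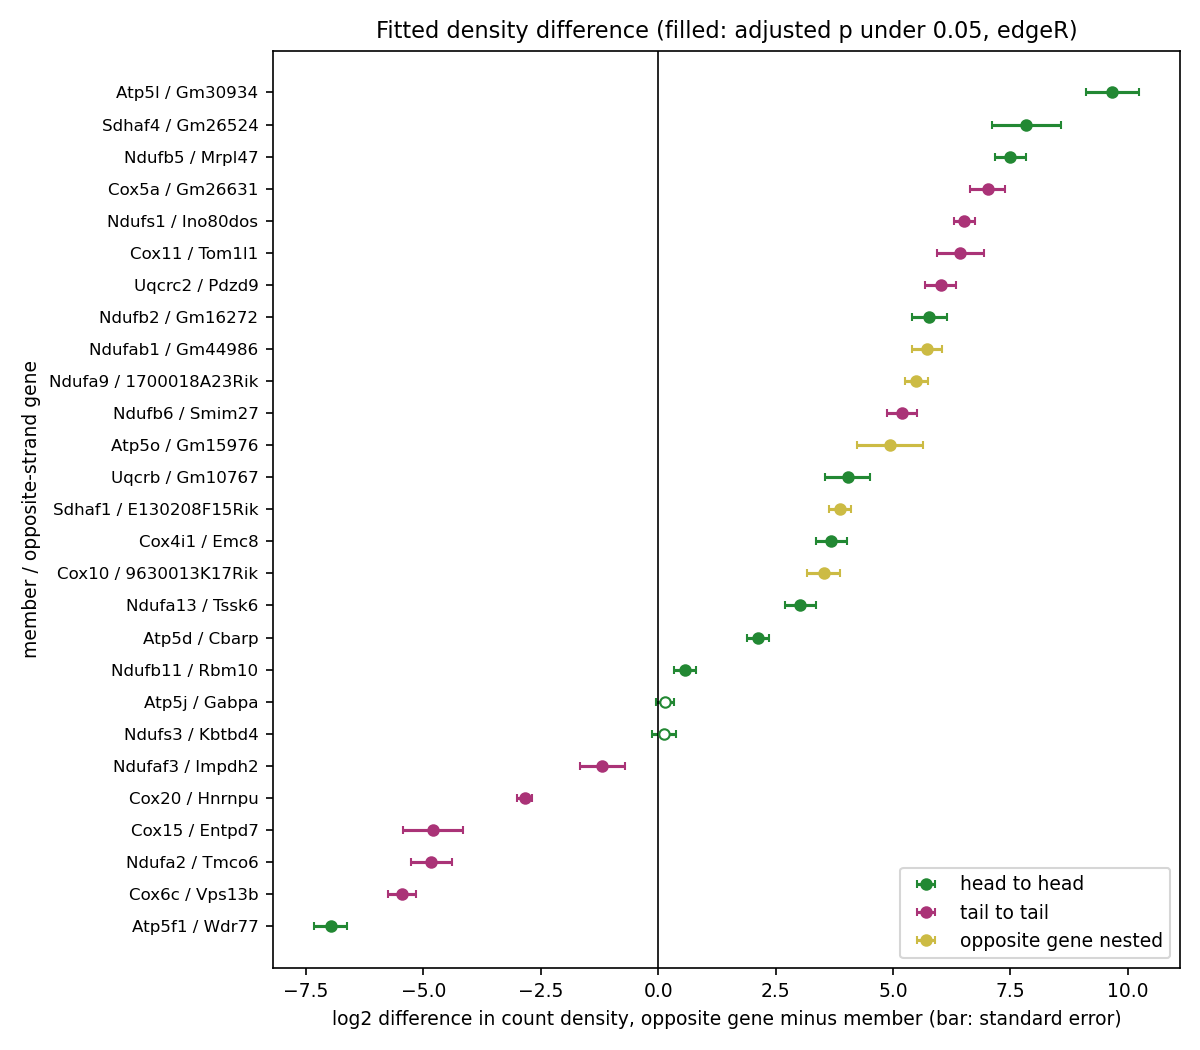
Fitted log2 difference in count density between opposite gene and member (points, bars are standard errors) for 27 of the 28 pairs tested, coloured by arrangement and filled where edgeR's adjusted p is under 0.05. The points run from Atp5l at 9.67 down to Atp5f1 at -6.97, with 19 of the pairs drawn called above 0 and 6 below.

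The complex I subunits, which hold 13 of the 31 pairs and so the most of any role, also had the most pairs with a denser opposite gene. Ndufb5 had 3, 4, 13 and 4 counts, and Mrpl47, a mitochondrial ribosomal protein gene that overlaps it head to head by 616 bases, had 1017, 1038, 1026 and 748. The log2 density difference was 7.5 ± 0.33 (SE), and 8.11 without replicate 3. Ino80dos, a long non-coding gene opposite the 3′ end of Ndufs1, had 838, 836, 935 and 651 counts against 20 to 28 for Ndufs1, a difference of 6.52 ± 0.23. In both pairs every library of the opposite gene lay far above every library of the member. Ndufb2 with Gm16272 (5.78 ± 0.37), Ndufab1 with Gm44986 (5.73 ± 0.32), Ndufa9 with 1700018A23Rik (5.49 ± 0.24), Ndufb6 with Smim27 (5.19 ± 0.33) and Ndufa13 with Tssk6 (3.03 ± 0.32) had the same direction.

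For Ndufb11 the difference was small. It had 61, 51, 52 and 36 counts and Rbm10, an RNA-binding protein gene, 340, 322, 345 and 206. Per exon base Rbm10 was 0.56 ± 0.23 higher on the log2 scale (edgeR adjusted p = 0.0339), and the call was lost on leaving out any 1 replicate, where the difference was 0.52 to 0.61.

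Ndufs3, a core subunit, was not separated from Kbtbd4, whose start lies between the 2 GABPA matches shown above. Ndufs3 had 80, 91, 102 and 57 counts and Kbtbd4, with a longer exon total, had 132, 145, 140 and 99. The log2 density difference was 0.13 ± 0.26 (edgeR adjusted p = 0.629).

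Ndufa2 and Ndufaf3 were denser than their opposite genes. Ndufa2 had 81 to 113 counts, and Tmco6, which it meets tail to tail over 60 bases, had 6, 10, 15 and 14, a log2 difference of -4.83 ± 0.43. Ndufaf3 was only slightly denser than Impdh2, an enzyme of guanine nucleotide synthesis with 26, 26, 13 and 33 counts. The difference was -1.19 ± 0.47 (edgeR adjusted p = 0.0295), and the call was lost without replicate 1 (-1.13), 2 (-1.30) or 3 (-0.86).

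In complexes II and III the 4 pairs all had a denser opposite gene, but only the Sdhaf1 pair met the filter from both sides. E130208F15Rik lies wholly inside Sdhaf1, covers 69.6% of its exon length and had 934, 909, 880 and 633 counts, against 56 to 100 for Sdhaf1, a log2 difference of 3.87 ± 0.23. Gm26524 overlaps the start of Sdhaf4, the window printed above with 1 NRF1 match, and had 89, 103, 87 and 86 counts. Sdhaf4, a complex II assembly factor, had 0, 0, 3 and 0, so the density ratio was 273-fold with a counting interval of 92.6 to 1328. All 3 counts lie in replicate 3, and without it the fitted log2 difference moved from 7.84 to 10.23. Pdzd9, tail to tail with Uqcrc2, had 1187, 985, 1098 and 756 counts (6.01 ± 0.34), and Gm10767, head to head with Uqcrb, had 352, 257, 320 and 270 (4.03 ± 0.48). Uqcrb, which binds ubiquinone, had 1, 7, 20 and 3 counts, and the difference was 4.92 without replicate 3.

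Complex IV held pairs of both kinds. Gm26631, opposite Cox5a, had 1173, 1013, 1164 and 739 counts against 2 to 12 for Cox5a, a log2 difference of 7.01 ± 0.36 (7.63 without replicate 4). Tom1l1, which covers 48.3% of the exon length of Cox11 tail to tail, had 590, 451, 552 and 352 counts where Cox11 had 4 in all (6.43 ± 0.50, and 7.95 without replicate 2, which held 3 of the 4). Emc8, a subunit of the membrane protein insertase of the endoplasmic reticulum, had 1138, 980, 1120 and 781 counts head to head with Cox4i1 (3.68 ± 0.33). 9630013K17Rik, nested inside Cox10, had 154, 141, 118 and 61 counts against 21 to 36 for Cox10 (3.53 ± 0.35). In these pairs the groups of libraries did not overlap.

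Cox20, Cox6c and Cox15 were denser than their opposite genes. Cox20 meets Hnrnpu, an abundant nuclear RNA-binding protein gene, tail to tail, and 804 bases or 91.1% of the exon length of Cox20 lie opposite Hnrnpu exons. Hnrnpu had 1907, 2048, 1890 and 1377 counts, more than Cox20 in every library, over a far longer exon length. Per exon base Cox20 was denser, by a log2 difference of -2.84 ± 0.15, and without the length term the direction reversed to 0.87. Cox6c had 240 to 436 counts, and Vps13b, a long vesicle transport gene that meets its 3′ end, had 36, 56, 23 and 18 (-5.45 ± 0.29). Cox15 had 38 to 56 counts, and Entpd7, a nucleotidase gene, had 3, 4, 6 and 0 (-4.80 ± 0.64).

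Complex V held the widest range. Gm30934, an antisense gene head to head with Atp5l, had 191, 196, 153 and 140 counts, and Atp5l, a subunit of the membrane part, had 2, 4, 0 and 0. The log2 difference was 9.67 ± 0.56, and 10.52 without replicate 2. It was the largest of the 28 pairs with all libraries, but without replicate 3 it was 9.34 and that of Sdhaf4 was larger. In the other direction, Wdr77, a partner of the arginine methyltransferase Prmt5, had 3, 3, 8 and 2 counts head to head with Atp5f1 at 341 to 514 (-6.97 ± 0.35). Cbarp was denser than Atp5d, a subunit of the rotor stalk (2.13 ± 0.24), and Gm15976 than Atp5o, the subunit that ties head and stalk together (4.94 ± 0.71, and 5.60 without replicate 2).

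Atp5j shares its start region with Gabpa, which encodes the factor whose letters were searched in the promoters. Atp5j had 186 to 288 counts and Gabpa 582, 563, 523 and 300. The log2 density difference was 0.14 ± 0.19 (edgeR adjusted p = 0.489), with the opposite gene denser in 2 of 4 libraries.

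The arrangement of the pairs was described by counts. Head to head, 13 pairs overlapped by 50 to 616 bases, and the opposite gene was denser in all libraries in 9 and the member in 2. Tail to tail, 12 pairs overlapped by 4 to 804 bases, with 5 in each direction. In the 5 pairs with the opposite gene nested inside the member, it was denser in all libraries. All 9 opposite genes not annotated as protein-coding were denser than their member in all 4 libraries, against 10 of the 22 protein-coding ones. Over all protein-coding genes with an opposite exon overlap, counted or not, the opposite gene was denser in all libraries in 43.7% head to head, 44.9% tail to tail and 51% with the opposite gene nested. The gene itself was denser in all libraries in 21.2%, 31.3% and 9.41% of them. The opposite gene was denser in 51.5% of those whose opposite gene is not protein-coding and in 39.3% of those whose opposite gene is, and the gene itself in 7.98% and 36.9%. All member pairs had counts, which the background does not require, so nothing is read from the difference.

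Among members without an opposite exon overlap, the highest counts after Ndufv3 were those of Atp5b and Atp5a1, given above. Atp5h, a subunit of the peripheral stalk, had 47, 45, 28 and 19 counts, with Kctd2 166 bases upstream on the other strand at 2.46 ± 1.67 CPM. Uqcc2 had 28, 35, 24 and 25 counts, with Itpr3 440 bases downstream at 29.6 ± 9.13 CPM. Cox7a1 had Capns1 858 bases downstream at 8.99 ± 3.65 CPM. In a later annotation, GENCODE release 21, 5 of the 83 members without an overlap gain one: Atp5a1 with Haus1, Ndufa11 with Vmac, Ndufaf2 with B230220B15Rik, Ndufs6 with Mrpl36 and Sdhaf2 with Cpsf7. Their counts here use release 13.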

How the data were processed

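Total RNA-seq of 4 libraries was used, although the protocol linked in the labels has poly(A) RNA in its name. Per the file headers, the authors aligned reads with STAR to mm10 and counted read pairs per gene with featureCounts 1.4.6-p4 over GENCODE mouse release 13 exons, strand setting 1, both ends required. The deposited values are raw counts, with the exon length per gene beside them. The command has no option to count fragments that map to several places or lie in several genes, so members with near-identical copies are uncertain. The library kit is not given in the sources used here.

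CPM and TPM were computed from the counts (Python 3.11.15, pandas 2.3.3). Of 50600 identifiers, 50376 were given a symbol, and gene types came from GENCODE release 21. The members and lists were chosen with earlier results of these data known.

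Each gene with an opposite-strand exon overlap of at least 1 base was paired with the gene of largest overlap. Own and opposite counts were compared with edgeR 4.0.16 in R 4.3.3 by the quasi-likelihood test. The library was a block, and the offset held library total and exon length. Pairs were filtered by filterByExpr at its default minimum count, which either gene of a pair could meet. DESeq2 1.42.0 was an alternative. Tested on simulated data for this comparison (4765 genes), the fit called 89% of 2-fold and 100% of 4-fold changes. Paralogues were compared with log2(TPM + 0.1). No library was a copy of another (chi-square per degree of freedom 7.35 to 30.9 over 6 pairs of libraries).

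The genes named were, in each role, the 3 with the highest TPM and the 3 with the highest opposite gene, then the 10 largest calls in each direction, the 5 with most counts, the paralogues and a list of core genes. Ndufa6, Ndufs3, Ndufs5, Ndufb4, Ndufb6, Ndufc1, Ndufa3, Ndufa11, Ndufa13, Ndufaf2, Ndufs6, Sdhc, Cox16 and Atp5o were named after their values were seen. A member and a marker are left out of the text, and the member out of the plots of pairs, and are not reported here.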

Additional observations from a re-analysis of the deposited data

Results flagged for a closer look

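In groups of 4 libraries, a value was singled out when its gap to the nearest other library was too large a part of the range of the group (Dixon's 95% critical value). Of 87 groups of values tested, 6 met this, where chance gives about 1 in 20, or 4.35. In replicate 3 the members held 0.218% of the counts, against 0.186% to 0.189% in the others. In replicate 4, Cox7a1 stood at 31.7 CPM, against 13.6 to 15.5 CPM, and Ndufv1 at 8.26 CPM, against 1.56 to 2.13 CPM. The log2 ratio of Atp5g2 to Atp5g3 was -3.11 in replicate 4, against -1.16 to -0.75. The log2 ratio of Cox6a1 to Cox6a2 was -0.044 in replicate 4, against 5.61 to 6.46, and that of Cox8a to Cox8b was -5.31 in replicate 1, against 6.64 to 7.08. The last pair of ratios rests on 2 counts of the tissue-restricted gene. Replicate 4, with 4 of the 6 values, has the lowest total, 1452053 counts, and the part of depth was not tested.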

How the results depend on the processing

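Opposite genes were denser in 19 of 28 pairs with DESeq2, with no library block and with every pair of at least 1 count (then of 31), in 15 of 21 at an overlap of at least 100 bases and in 22 of 28 with no exon length. Members were denser in 7, or in 5 under the last 2 settings. Leaving out 1 replicate at a time gave 18 opposite and 5 to 7 own, 83 to 85 members at 1 TPM, and a share of counts of 0.188% to 0.198%. Without exon length, Cox20 reversed to 0.87, Ndufaf3 fell to -0.43 and lost its call, and Atp5j (1.00) and Ndufs3 (0.66) gained one. The share of counts was 0.221% when the total left out the abundant genes mt-Nd6 and CT010467.1, and 0.130% without assembly factors. At a threshold of 5 TPM, 44 members passed. In TMM-scaled CPM per kb the medians by position were 4.69 (exon overlap), 1.96 (spans only) and 2.56 (within 5 kb), and an overlap of 100 bases gave 5.86 TPM for the first. Low counts limit single genes: 20 members had at most 3. No paired analysis was possible because there is 1 group and so no second group to pair, while genes were compared within each library.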

Other observations

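Of 51 other genes of the pathway outside the symbol rule, 31 reached 1 TPM, 20 overlapped an opposite exon and 4 had no counts, with a median of 1.68 TPM. The genes named here were picked for their values. The complex IV assembly factors Surf1 and Sco2 stood at 152 ± 22.2 and 149.8 ± 9.95 TPM (SD, n = 4), and Cmc1, another such factor without an opposite exon overlap, at 147 ± 32.5 TPM. Ttc19, which acts on complex III, stood at 98.6 ± 7.46 TPM and Coa6 at 66.9 ± 20.3 TPM. Of the electron carriers, Cyc1 (cytochrome c1) stood at 5.76 ± 2.00 TPM and Cycs (cytochrome c) at 1.02 ± 0.536 TPM. Of the regulators, Gabpa stood at 65.8 ± 7.48 TPM, Pprc1 at 41.3 ± 4.71 TPM and Nrf1 at 1.03 ± 0.494 TPM, and the coactivator Ppargc1a had no counts.

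Of 18 of these genes tested against their opposite gene, the opposite gene was denser in 8 and the gene itself in 7 (edgeR, adjusted p under 0.05), against 47.8% and 45% of all genes tested and 61.9% and 29.6% of protein-coding genes. The Gabpa pair is the Atp5j pair seen from the other side, and the share over all genes holds such pairs from both sides. Atpif1, the inhibitor of the ATP synthase, had 3, 0, 0 and 0 counts, and Gm12999 was denser by 9.75 ± 0.54 on the log2 scale (SE). Coa3, a complex IV assembly factor, had 2, 5, 0 and 0 counts and Cntd1 was denser by 8.80 ± 0.37. Both pairs passed the filter through the opposite gene only, as did those of Oxa1l, Taco1, Pet100, Higd1a and Tfb1m. Etfdh and Coq6 passed through the gene itself only. In all of these the direction was largely set by which gene passed. In the other direction were Coa6 with Tarbp1 (-3.63 ± 0.40), Surf1 with Surf2 (-1.81 ± 0.20) and Ttc19 with Ncor1 (-1.21 ± 0.16).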
